A study of Bos taurus with 6 samples.

Results

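The genes described here encode the factors that start, extend and end protein synthesis on the ribosome. They were chosen by name, not by their values: all probes whose symbol in the platform annotation begins with EIF or EEF and a digit, or is ETF1, GSPT1, PABPC1 or PABPC4, without the kinases EIF2AK1 to EIF2AK4 and EEF2K. This gave 89 of 43794 probes, for 58 of 15216 named genes. EIF3A and EIF4G1, central subunits of their complexes, had no probe under their names in the annotation used here. Of these, 74 probes of 52 genes had signal above the negative control spots and were tested among 27210 such probes, which stand for 11190 named genes. Each gene is given by its brightest kept probe.

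The cells were granulosa cells, the somatic cells that surround the oocyte in the follicle, from Holstein cattle. They came from follicles of 2 to 6 mm and were kept for 5 days without serum, with FSH and insulin at 10 ng/ml each. FGF8, which binds FGF receptors on the cell surface and activates ERK signalling, was then given to the treated cells for 2 h at 10 ng/ml. Control cells had the same FSH and insulin, got no FGF8 and are labelled 0 h, so FGF8 and 2 h more in culture cannot be told apart. The 3 numbered replicates were each hybridised on 2 arrays, with the dyes exchanged: the forward array had treated RNA in Cy5 and the swapped array had it in Cy3. By the array names, replicate 1 lay on 2 slides of its own, while replicates 2 and 3 shared another slide. A difference between replicate 1 and the others cannot be told apart from a difference between slides. The labels do not say that the replicates are separate animals or cultures, so p-values measure the spread between these 3 samples, which may be technical.

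Initiation begins when eIF2 brings the initiator tRNA to the small ribosomal subunit, which eIF3 and eIF1 prepare and which the cap-binding eIF4 factors recruit to the mRNA. Elongation factors of the eEF1 group deliver the aminoacyl-tRNAs and eEF2 moves the ribosome along, until the release factors end the chain. Growth factors are known to act on this machinery largely by phosphorylation of the proteins, through mTOR and ERK, a layer that transcript arrays do not measure.

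All values are the authors' deposited log2 ratios of treated over control RNA, averaged over the dye swap of each replicate, and errors are SD over the 3 replicates. Among early response genes, SPRY2, an inhibitor of growth factor signalling, stood at 1.85, 1.41 and 1.41 in replicates 1, 2 and 3, and NR4A1, an orphan nuclear receptor, at 1.27, 1.31 and 1.34. Their limma adjusted p was 0.150, above the threshold of 0.05. EGR1, of the same list, stood at 1.51, 1.51 and 1.81 (limma adjusted p = 0.150). FOS was less even, at 1.78, 1.02 and 0.51 (limma adjusted p = 0.856), and its other kept probe averaged -0.11. Granulosa markers had 9 of 10 members above background (FOXL2 had no kept probe), with a median of 0.061. Their means ran from -0.46 (NR5A2) to 0.48 (FST). The medians of theca and stroma (6 genes), endothelial (4) and leukocyte markers (5) were -0.19, 0.077 and -0.019. Such ratios do not show which cell types were present. Median spot intensity was 108 to 192 in Cy3 and 110 to 163 in Cy5. Negative control spots had medians from 73 (Cy3) up to 140 (Cy3), with Cy5 between 81 and 128. Fewer cells of a type and less RNA per cell cannot be told apart in such samples.

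No translation factor gene passed the test, and the counts for the family were near those of all genes on the array. Of the 52 genes, 0 were called by limma at an adjusted p under 0.05, where 0% of all 11190 genes and 0.00368% of the probes (1 of 27210, with no gene name) were called. At an unadjusted p under 0.05 there were again 0 of 52, against 5.52% of all genes. The gene means ran from -0.40 (EIF4B) to 0.28 (EIF4G2), and 0 of 52 differed more than 1.5-fold, as 1.77% of all genes did. Their median was 0.035, beside 0.0054 over all genes, and 30 of 52 had a mean above 0, beside 51.0% of all genes. The 95% interval of the ratio lay within 1.5-fold in both directions for 35 genes (67.3%, against 67.4% of all genes) and within 2-fold for 48 (92.3%, against 10627 of 11190 genes). EIF4E, EIF4A1, EIF3G and EEF1D had wider intervals, because their replicates lay far apart.

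**Figure D1:**
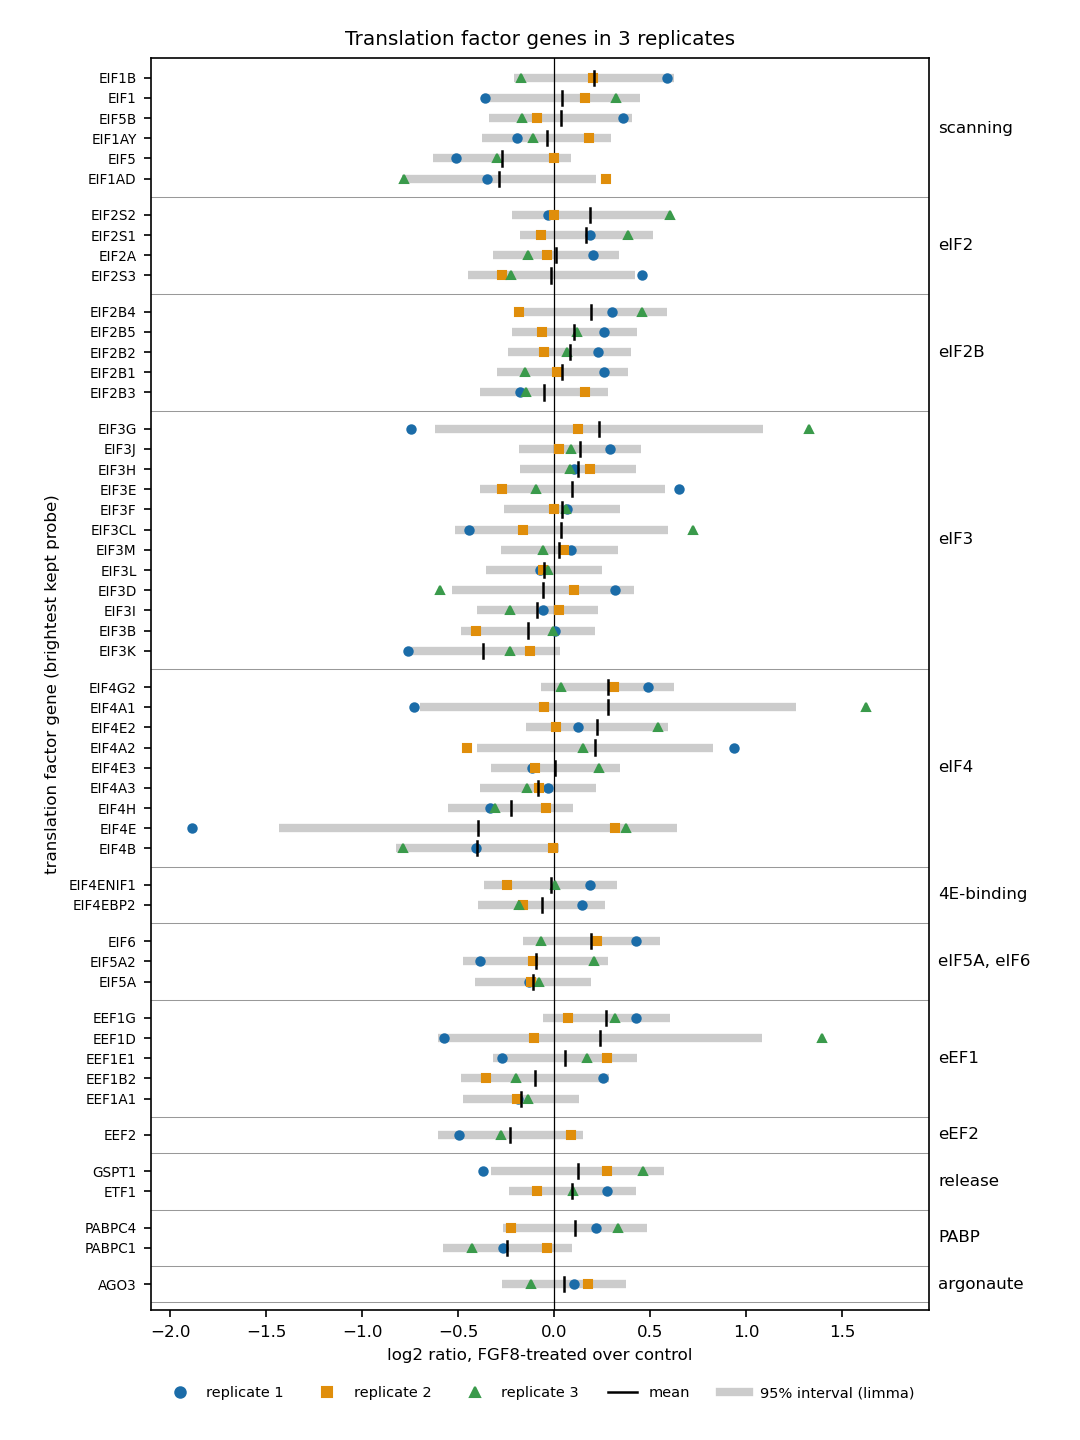
Log2 ratio of FGF8-treated over control RNA (horizontal axis) for each of the 52 translation factor genes, grouped by role. Symbols are the 3 replicates, black ticks their mean and grey bars limma's 95% interval, and the means stay between -0.40 and 0.28 while single replicates reach -1.89 and 1.62.

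A single sign on all 6 arrays was found for 2 of 52 genes (3.85%), against 5.99% of all genes, and a single sign in all 3 replicates for 15 of 52 (28.8%), against 26.2%. EIF4E2, a cap-binding protein known to repress translation, was the 1 gene higher on all 6 arrays, with replicate values of 0.12, 0.0069 and 0.54. Replicate 3 was the highest and replicate 2 was at 0. Its mean was 0.22 ± 0.28 (limma adjusted p = 0.858), and without replicate 3 it was 0.065. Its other probes averaged 0.18 and 0.26 but changed sign between arrays, the brighter of them with -0.12, -0.19 and -0.16 on the forward and 0.17, 0.74 and 1.13 on the swapped arrays. EIF3K, a peripheral subunit of eIF3, was lower on all 6 arrays.

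Among the factors that find the start codon, 3 genes had a mean above 0 and 3 below. EIF5, which triggers GTP hydrolysis by eIF2, had replicate values of -0.51, -0.0044 and -0.30 on its brightest probe (mean -0.27 ± 0.26, limma adjusted p = 0.856). Its second probe went the other way, at 0.55, 0.16 and 0.16, and its dimmest averaged -0.098, so the probes gave no common sign. EIF1, which guards start codon choice, stood at -0.36, 0.16 and 0.32 on its brightest probe, low in replicate 1 and high in the other two. A second, less bright probe stood at 0.012, 0.36 and 0.23, so it was not below 0 in replicate 1. EIF1B, a close paralogue of EIF1, had the opposite order to the brightest EIF1 probe, with 0.59, 0.20 and -0.17. EIF5B, which joins the ribosomal subunits, averaged 0.033 and EIF1AD, a protein with an eIF1A domain, -0.29. The probe named EIF1AY, the Y-linked form of eIF1A, averaged -0.041. It was dim, above background on 3 arrays in treated and 4 in control RNA. Granulosa cells come from females, so its signal may not be from that gene, and cross-hybridisation was not tested.

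The eIF2 complex carries the initiator tRNA, and its subunits showed no shared direction. EIF2S1, the alpha subunit that stress kinases phosphorylate, stood at 0.19, -0.070 and 0.38 (mean 0.17 ± 0.23, limma adjusted p = 0.874). On the single arrays it ranged from -0.14 to 0.91, the highest being the forward array of replicate 3. The beta subunit gene EIF2S2 had a ratio of 0.60 in replicate 3 and was near 0 in the other two. The gamma subunit gene EIF2S3 stood at 0.46, -0.27 and -0.23, and EIF2A, a separate protein that can also bring in the initiator tRNA, averaged 0.010.

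The exchange factor eIF2B, which recharges eIF2 with GTP, was measured with all 5 subunit genes. Their means lay between -0.055 (EIF2B3) and 0.19 (EIF2B4), and 4 of 5 were above 0. EIF2B4 stood at 0.30, -0.18 and 0.45, high in replicates 1 and 3 and low in replicate 2 (limma adjusted p = 0.874). EIF2B5, the catalytic subunit, averaged 0.10 on its brightest probe and -0.0053 and -0.014 on the other two. In this group 0 genes had a single sign in all 3 replicates.

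The large scaffold eIF3 had 12 subunit genes, 7 with a mean above 0 and 5 below, and a median of 0.031. EIF3K stood at -0.76, -0.13 and -0.23, below 0 in every replicate and lowest in replicate 1. Its mean of -0.37 ± 0.34, a 1.29-fold lower level, had an interval from -0.77 to 0.027 (limma adjusted p = 0.856). Without replicate 1 the mean was -0.18. Several subunits were tight around 0 once the dye swap was averaged. EIF3L had replicate values of -0.073, -0.057 and -0.034, and EIF3H 0.10, 0.18 and 0.083. The orientations of EIF3L differed, with a mean of 0.12 on the forward and -0.23 on the swapped arrays. EIF3F was covered by 4 kept probes, all with means above 0, from 0.041 on the brightest to 0.35 on the dimmest. The dimmest had a median intensity in control RNA of 170.0 and an unadjusted limma p of 0.0354 (limma adjusted p = 0.856). Counts of genes at an unadjusted p under 0.05 use the brightest probe only, so they leave that probe out.

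EIF3G, a subunit that takes part in scanning, was spread widely between replicates. Its brightest probe stood at -0.75, 0.12 and 1.32 in the 3 replicates and its second probe at -0.95, -0.47 and 1.03. Both probes put treated below control in replicate 1 and above it in replicate 3, and each did so on the forward and the swapped array. The mean of the brightest probe was 0.23 ± 1.04 (limma adjusted p = 0.927). EIF3C, listed as EIF3CL in the current bovine annotation, had the same order on its bright probe, at -0.45, -0.16 and 0.72.

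The cap-binding group held the genes at both ends of the range. EIF4E, the cap-binding protein itself, stood at -1.89, 0.31 and 0.37 on its brightest probe and at -1.71, 0.25 and 0.61 on the next. On these probes the treated cells of replicate 1 were below control on both arrays, with ratios of -2.04 and -1.74 on the first and -1.81 and -1.61 on the second, while replicates 2 and 3 were above 0 on every array. The dim remaining probe stood at -0.41, -0.052 and -0.24. The mean of the brightest probe, -0.40 ± 1.29, rested on replicate 1 (limma adjusted p = 0.893), and without it the mean was 0.34.

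EIF4A1, the RNA helicase that unwinds the leader of the mRNA, stood at -0.73, -0.057 and 1.62. It was low in replicate 1 and high in replicate 3 on both arrays of each, and its mean was 0.28 ± 1.21 (limma adjusted p = 0.925). The paralogue EIF4A2 was highest in replicate 1, at 0.94, and stood at -0.45 and 0.15 in the other two. Its probe and that of EIF4A1 were read as the annotation names them, and hybridisation between the 2 paralogues was not tested. EIF4A3, the family member of the exon junction complex, averaged -0.086.

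EIF4B, which stimulates the helicase, had the lowest mean of the family. Its replicates were -0.41, -0.0068 and -0.79, near 0 in replicate 2 and lower in the other two, and 5 of 6 arrays were below 0. The mean of -0.40 ± 0.39 is a 1.32-fold lower level, with an interval from -0.83 to 0.023 (limma adjusted p = 0.856). It was -0.21 without replicate 3 and -0.23 with median centring. Its relative EIF4H stood at -0.33, -0.042 and -0.31 on a dim probe (mean -0.23 ± 0.16).

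EIF4G2, a scaffold that resembles eIF4G but does not bind eIF4E, had the highest mean, with 0.49, 0.31 and 0.035 in the replicates. Its value depended on the dye: the forward arrays gave 0.95, 0.80 and 0.85, and the swapped arrays 0.022, -0.18 and -0.78. The dye effect, taken as the forward mean minus the mean of both orientations, was 0.59 and was called (limma adjusted p = 0.00105). The mean over both orientations was 0.28 ± 0.23 (limma adjusted p = 0.856). Among the proteins that bind eIF4E, EIF4EBP2, a translation repressor, averaged -0.067 on a dim probe and EIF4ENIF1, which carries eIF4E into the nucleus, -0.020.

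EIF6, which keeps the large ribosomal subunit from joining too early, stood at 0.43, 0.22 and -0.070 on its brightest probe. A second, less bright probe gave -0.20, 0.098 and 0.74, so the replicates were ordered in the opposite way although the means were 0.19 and 0.21. EIF5A, the factor that carries the modified lysine hypusine, was tight at -0.13, -0.12 and -0.083 once the dye swap was averaged. The mean of EIF5A was 0.030 on the forward and -0.25 on the swapped arrays. Its paralogue EIF5A2 averaged -0.097.

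**Figure D2:**
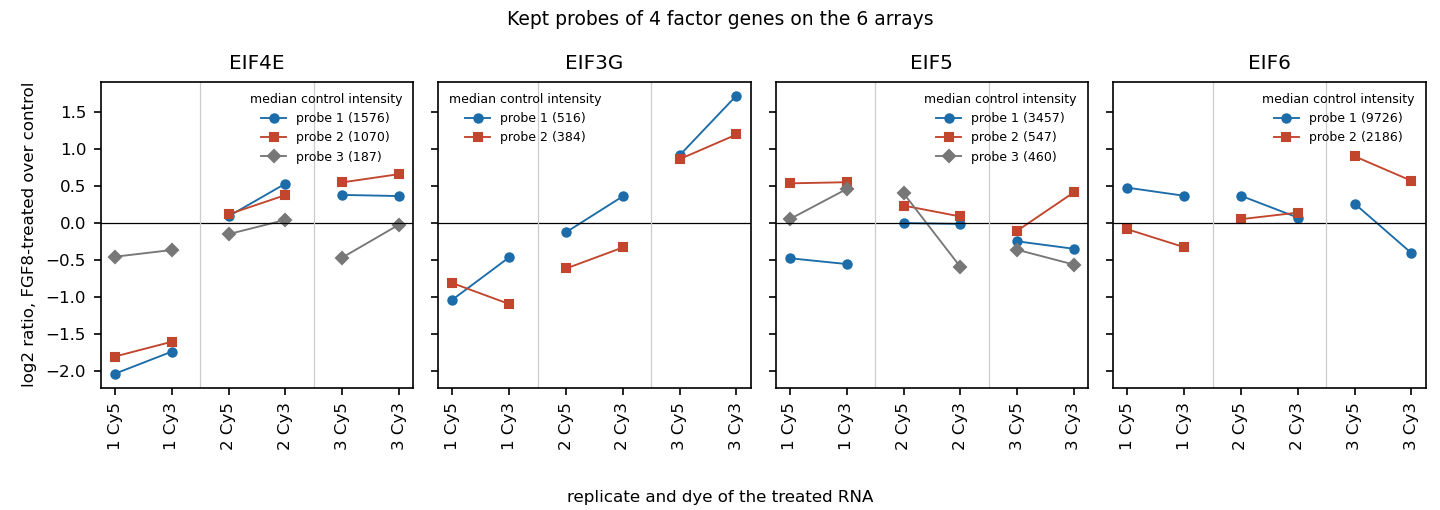
Log2 ratio of treated over control RNA on each of the 6 arrays (horizontal axis: replicate and dye of the treated RNA) for every kept probe of EIF4E, EIF3G, EIF5 and EIF6, with the 2 arrays of a replicate joined. Both bright probes of EIF4E lie at -1.61 or lower in replicate 1 and above 0 elsewhere, both probes of EIF3G change sign between replicates 1 and 3, and the probes of EIF5 and EIF6 disagree with each other.

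Of the elongation factor genes, 0 passed the test, and their means lay between -0.23 (EEF2) and 0.27 (EEF1G). EEF1A1, which delivers aminoacyl-tRNA and is among the most abundant proteins of a cell, stood at -0.19, -0.19 and -0.14 (mean -0.17 ± 0.030, limma adjusted p = 0.858). On this probe the replicates were close together, yet the 2 orientations were not: the mean was 0.099 on the forward and -0.44 on the swapped arrays. With median centring of the scanner values, the mean of this probe was -0.00041. The second, dimmer probe of EEF1A1 was spread more widely, at 0.28, -0.43 and -0.23. EEF1G, a subunit of the exchange complex that recharges eEF1A, stood at 0.43, 0.069 and 0.32 (mean 0.27 ± 0.18, limma adjusted p = 0.856) and was above 0 on 5 of 6 arrays. EEF1D, another subunit of that complex, had -0.57, -0.11 and 1.39, low in replicate 1 and high in replicate 3 on both arrays of each. EEF1B2, a further exchange subunit annotated as EEF1B, averaged -0.10, and EEF1E1, a protein of the tRNA synthetase complex, 0.056. EEF2, which moves the ribosome by a codon, stood at -0.50, 0.087 and -0.28 on its brightest probe (mean -0.23 ± 0.30, limma adjusted p = 0.856). That probe was above 0 in replicate 2 and below in the other two. The dim second probe of EEF2 was below 0 in all 3 replicates, at -0.16, -0.014 and -0.023.

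Both release factors were close to 0 on average. ETF1, which recognises stop codons, stood at 0.27, -0.088 and 0.095 (mean 0.093 ± 0.18, limma adjusted p = 0.925), and its partner GTPase GSPT1 at -0.37, 0.28 and 0.46. A dye effect was called for ETF1 too, with means of 0.44 on the forward and -0.25 on the swapped arrays. PABPC1, the main poly(A)-binding protein of the cytoplasm, stood at -0.27, -0.039 and -0.43 (mean -0.25 ± 0.20, limma adjusted p = 0.856), lower in all 3 replicates and on 5 of 6 arrays. PABPC4 averaged 0.11. AGO3 is an argonaute, a small-RNA binding protein that entered through its older name EIF2C3, and averaged 0.052 (limma adjusted p = 0.961).

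The 6 remaining symbols had no kept probe and were not tested. EIF4E1B, a form of eIF4E known from oocytes, lay above the negative controls on 1 of 6 arrays in either RNA on each of its 2 probes. EEF1A2, the muscle and nerve form of eEF1A, was above background on 2 arrays in treated RNA and 0 in control RNA. EIF4EBP1, a repressor that binds eIF4E, EIF4G3 and the argonautes AGO1 and AGO2 were above background on at most 3 arrays in either RNA. Their levels are bounded by the background only.

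The spread between replicates was like that of other genes. A range over 1 log2 unit between replicates was found for 7 of 52 genes, EIF4A1, EIF4E, EIF3G, EEF1D, EIF4A2, EIF3CL and EIF1AD, a limit set after the values were seen. That is 13.5% of the family, beside 12.6% of all genes. On their brightest probes EIF4A1, EIF3G, EEF1D and EIF3CL were lowest in replicate 1 and highest in replicate 3, while the dim second probe of EIF3CL ran in reverse, at 0.14, 0.079 and -0.27. Replicate 2 had the smallest spread, with an SD over the 52 genes of 0.18, against 0.46 in replicates 1 and 3, and the same order held over all genes at 0.23, 0.41 and 0.48.

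The median of the family differed with the dye orientation, while single genes went either way, such as EIF4G2 with a dye effect of 0.59 and EIF3G with -0.31. The median of the 52 genes was 0.052, 0.049 and 0.11 on the forward arrays of replicates 1, 2 and 3 and -0.058, -0.058 and -0.11 on their swapped arrays. The orientations did not overlap, and averaging the swap brought the replicate medians to 0.034, -0.038 and -0.021. Over all genes the medians were 0.0049, 0.013 and 0.022 on the forward and -0.0090, -0.0097 and 0.027 on the swapped arrays. Cytosolic ribosomal protein genes were also lower on the swapped array of each replicate. Their medians were 0.041, 0.0073 and -0.27 on the forward and -0.074, -0.14 and -0.52 on the swapped arrays. A dye effect was called for 2 of 52 genes, against 7.22% of all genes.

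**Figure D3:**
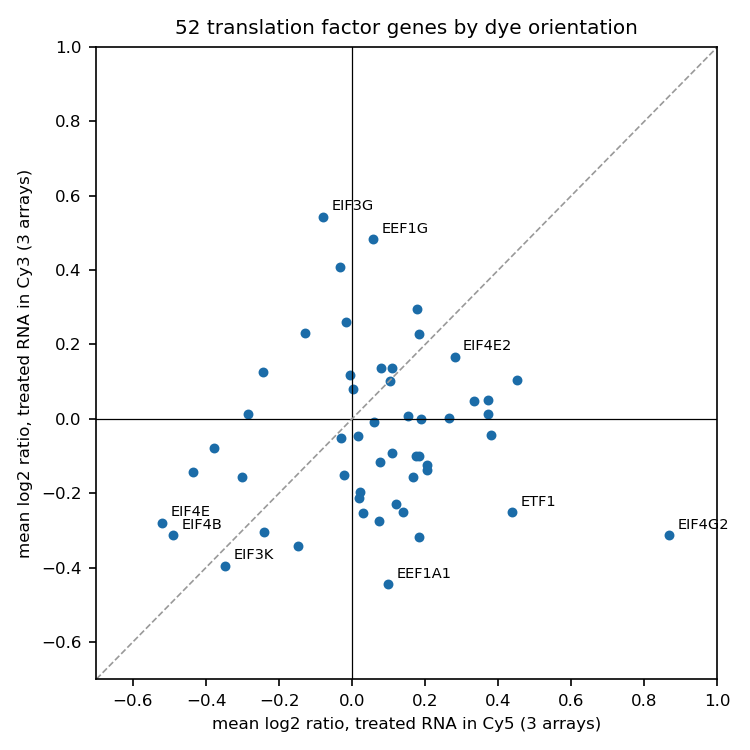
Mean log2 ratio of each of the 52 genes over the 3 forward arrays, treated RNA in Cy5 (horizontal axis), against the 3 swapped arrays, treated RNA in Cy3 (vertical axis), where the dashed line marks equal values. EIF4G2 lies at 0.87 and -0.31, farthest from the line, while EIF3K and EIF4B lie below 0 on both axes.

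Cytosolic ribosomal protein genes, the other large group of the translation machinery, are set beside the factors for their level. Over 63 of them the median was -0.13, beside 0.035 for the factors, and 53 of 63 had a mean below 0, while with median centring of normexp-corrected scanner values in place of loess their median turned to 0.032. Of the 63, 0 passed over all genes and 6 had an unadjusted p under 0.05, all lower, against 2.42% of all genes. Their replicate medians were -0.019, -0.087 and -0.35, so they lay lowest in replicate 3, where the factors stood at -0.021. With that centring the median of the factors was 0.17 and that of all genes 0.046. The difference between the lists was not tested.

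**Figure D4:**
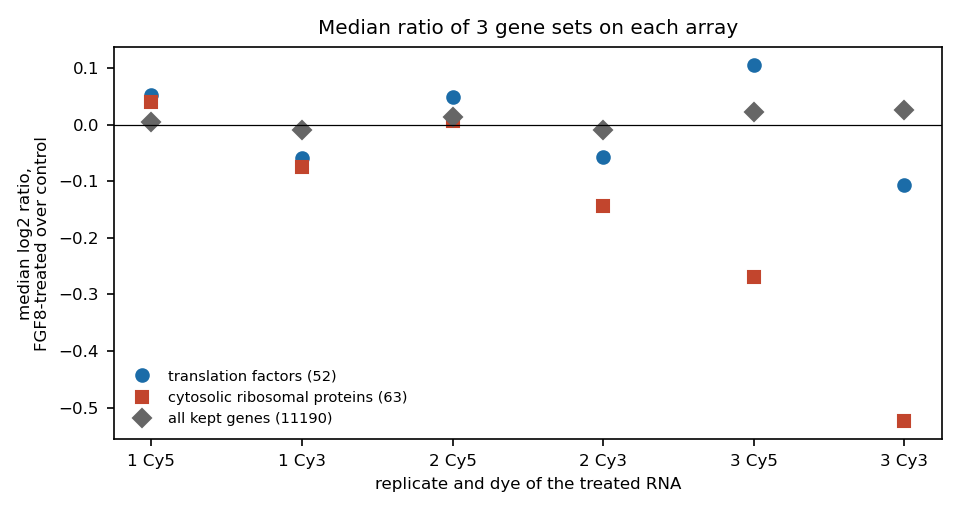
Median log2 ratio of treated over control RNA on each array (horizontal axis: replicate and dye of the treated RNA) for the 52 translation factor genes, the 63 ribosomal protein genes and all 11190 kept genes. The factors lie between -0.11 and 0.11 on every array, while the ribosomal protein genes reach -0.27 and -0.52 in replicate 3.

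Larger values were found among the genes that control these factors, the kinases, phosphatase subunits and binding proteins of a list of 36 genes, 31 of them kept. Of the 31, 0 passed over all genes, 3 had an unadjusted p under 0.05, all higher (3.10% of all genes were), and the median was 0.15. A value above 0 on all 6 arrays was found for 5 genes (3.49% of all genes) and below 0 on all 6 for 3 (2.50%). RPS6KB1, the kinase S6K1 that phosphorylates eIF4B and the ribosomal protein S6, stood at 0.87, 0.44 and 0.65. It was higher in every replicate, 1.57-fold on average (0.65 ± 0.21, limma adjusted p = 0.856). PPP1R15B, which directs a phosphatase to eIF2 alpha, stood at 0.54, 0.60 and 0.52, a 1.47-fold higher level (0.55 ± 0.037, limma adjusted p = 0.856). Over the alternatives their limma adjusted p ran from 0.151 and 0.199 (slide as a random block) to 0.991.

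MKNK1, the kinase that phosphorylates eIF4E, stood at 0.18, 0.34 and 0.54 on its brighter probe (0.35 ± 0.18) and at 0.0024 on average on its other one. With the mean of both probes it stood at 0.18, and under that setting or an intensity trend its unadjusted p was no longer under 0.05. RPS6KA3, an ERK-activated kinase, averaged 0.29 ± 0.092, with means of 0.51 on the forward and 0.072 on the swapped arrays. LARP4, which binds poly(A) and PABPC1, averaged 0.28 ± 0.13. On the lower side were PAIP1, a partner of PABPC1 (-0.27 ± 0.18), and EEF2K, the kinase that inactivates eEF2 (-0.23 ± 0.14). DHPS, which takes the first step in making the hypusine of eIF5A, was lower too (-0.34 ± 0.24). Its other probe averaged -0.11. On its brightest kept probe, each of these genes had 1 sign on all 6 arrays, which was the condition for naming it. Each had limma adjusted p = 0.856. The kinases of eIF2 alpha stood at -0.090 (EIF2AK1), 0.23 (EIF2AK2), -0.026 (EIF2AK3) and 0.083 (EIF2AK4). EIF2AK2 was spread widely between replicates, at -0.54, 0.086 and 1.15 (SD 0.85). MTOR averaged 0.24 ± 0.32.

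**Figure D5:**
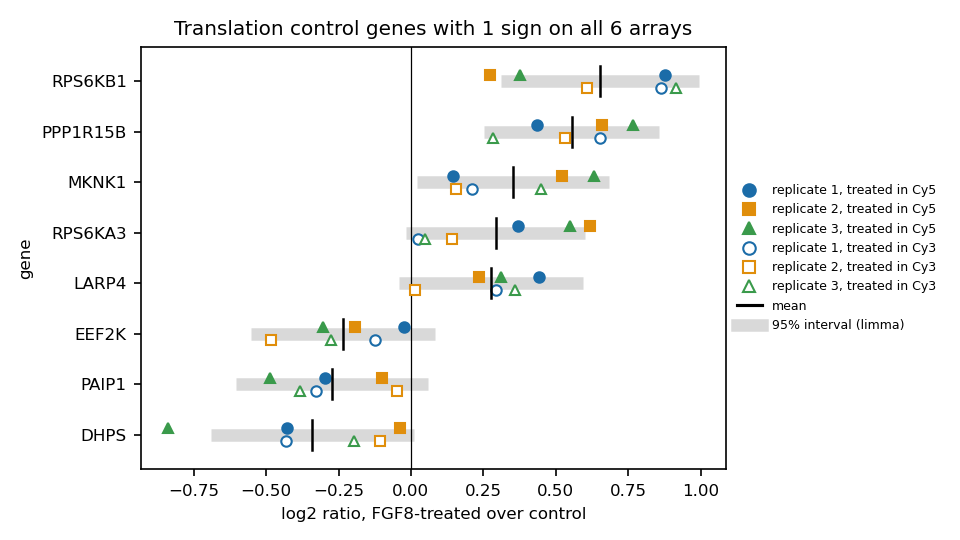
Log2 ratio of treated over control RNA (horizontal axis) on each of the 6 arrays for the 8 translation control genes with 1 sign on all arrays, filled symbols for treated RNA in Cy5 and open symbols for treated RNA in Cy3. Black ticks are means and grey bars limma's 95% interval, and the intervals of RPS6KB1, PPP1R15B and, on its brighter probe, MKNK1 lie above 0 as fitted, while that of MKNK1 reaches 0 with an intensity trend or the mean of its probes.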

How the data were processed

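RNA of granulosa cells was amplified and hybridised on 6 two-colour arrays, per the labels. The deposited table holds a log2 ratio per probe and array, treated RNA over control. They correlated at 1.00 with scanner median foreground minus background after loess, and these steps are not stated otherwise in the sources used here. Column medians were 0.0025, 0.0030, 0.0018, -0.00085, 0.0063 and 0.0067. The deposited scanner tables hold spot intensity and local background, uncorrected, per the file headers. They served here for the background filter, to choose the brightest probe and for alternatives. Normexp-corrected ratios correlated with the deposited ratios at 0.753 on the replicate 1 array with treated RNA in Cy3. On the other arrays the correlation was 0.990 to 0.997. The deposited ratios are the main values because the test was planned on them, and this comparison does not decide between the versions.

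A probe was kept when it exceeded the 95th percentile of 153 negative control spots in treated RNA on at least 4 of 6 arrays, or in control RNA on at least 4; 143 probes that the scanner file flags as ignored on 1 array or more were dropped, a step added to the planned filter. Symbols came from the platform annotation and were updated through RefSeq gene names: of 21790 named probes, 20025 were current, 1524 updated and 241 kept. The 2 arrays of a replicate were averaged and the 3 means tested against 0, two-sided, with limma 3.58.1 (lmFit, eBayes; R 4.3.3) and Benjamini-Hochberg adjustment over all kept probes at 0.05. Treated and control RNA of a replicate share an array, so the pairing lies within each ratio. The fit was tested on simulated data. The number of arrays limits the precision.

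The members, the lists (ribosomal proteins, translation control, early FGF response and cell markers) and the tests were chosen with earlier results of these data known. Genes named with replicate values had 1 sign on all 6 arrays, the smallest p of their role group, a place in a list of core factors, or 1 of the 5 smallest p in a direction; translation control genes had 1 sign on all arrays or an unadjusted p under 0.05. Others named, such as EIF3G, EEF1D, EIF4A2 and EIF3CL, were picked after their values were seen. Alternatives changed the background correction, normalization, filter, probe rule, variance model, arrays, block and replicates.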

Additional observations from a re-analysis of the deposited data

Results flagged for a closer look

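For 2 translation factor genes the ratio differed with the dye. For EIF4G2, the forward mean (treated RNA in Cy5) minus the mean of both orientations was 0.59 (limma adjusted p = 0.00105), and for ETF1 it was 0.34 (limma adjusted p = 0.0341). All 3 forward arrays were above 0 for both genes, and the ETF1 ratio was below 0 on all 3 swapped arrays. The mean over both orientations cancels this effect, while a single array keeps it.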

How the results depend on the processing

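Under every alternative run, 0 translation factor genes were called. The count of all genes called, 0 as reported, became 8 on forward arrays (Cy5) only, 11 with the replicate block (6 arrays, consensus correlation 0.180) and 12 with the slide as a random block, the last chosen after seeing the data; in both of these, single arrays count as observations. Factor genes at an unadjusted p under 0.05, 0 as reported, were 4 with median centring (EEF1G, EIF3H, EIF4G2 and EIF6), 2 without the filter on dim probes, 3 with treated RNA in Cy5 only, 3 with Cy3 only, 2 with the replicate block (EIF3K and EIF4B), 3 with the slide block, and 1 to 2 with a replicate left out. Over all genes the shares at that p were 7.89%, 5.87%, 12.5%, 9.30%, 8.95% and 10.6% in these settings in turn, and 4.48% to 6.76% with a replicate left out. Their median moved from 0.035 to 0.17 with median centring, 0.078 with Cy5 only and -0.065 with Cy3 only, and lay between -0.0093 and 0.050 with a replicate left out, lowest without replicate 3. Factor genes with a dye effect, 2 as reported, were 4 without background correction, 11 with median centring, 4 with an intensity trend, and 1 without each replicate in turn. The share of all genes with a dye effect is not given for these settings, so these counts are not a result about the family. With median centring, 25.0% of factor genes were below 0, against 42.3% as deposited, and all genes went from 49.0% to 40.8%. Lower values moved nearer to 0 in that setting, with EEF1A1 at -0.00041, EEF2 at -0.063, PABPC1 at -0.085 and EIF5 at -0.095. Higher values moved up, such as EEF1G at 0.43 and EIF4G2 at 0.42. Among the factor genes that met a naming rule, values turned sign with Cy3 only for EIF4G2 (-0.31), EIF2S1 (-0.045), EIF1 (-0.10) and ETF1 (-0.25). With Cy5 only they turned for AGO3 (-0.13), EIF4EBP2 (0.18) and EEF1A1 (0.099), and with median centring for AGO3 (-0.026). Factor genes outside those rules turned sign too, such as EIF3L (0.12) and EIF2B3 (0.14) with Cy5 only and EIF5B (-0.14) with Cy3 only. With a replicate left out, EIF4E lay between -0.79 and 0.34, EIF4A1 between -0.39 and 0.78, EIF1 between -0.10 and 0.24 and AGO3 between -0.011 and 0.14. The cause of these moves was not tested, other than that fewer arrays enter the single-orientation fits. The slide as a random block on 3 replicate means could not be fitted, since it leaves no estimate of the block. Dim probes give ratios near the background, which limits EIF4H, EIF4EBP2, EIF5A2, EIF1AY and AGO3, all with a median control intensity of at most 192.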

Other observations

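Across the 52 genes, the dye-swapped arrays of a replicate had Pearson's r of 0.715, -0.072 and 0.580 in replicates 1, 2 and 3, with Spearman's rho of 0.619, -0.057 and 0.358. Over all genes r was 0.580, -0.052 and 0.530. Between replicates r was -0.322 (1 and 2), -0.267 (1 and 3) and -0.033 (2 and 3), against -0.028, -0.055 and 0.118 over all genes. These are correlations across genes, which are not independent replicates.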
